A study of Rattus norvegicus with 15 samples.

Results

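The sodium pump genes described here were the beta subunits Atp1b1, Atp1b2 and Atp1b3 and the FXYD regulators Fxyd2 and Fxyd4. They were measured by all probe sets, on 3 designs of oligonucleotide array (called arrays A, B and C), whose only platform gene symbol was 1 of these 5 genes. This gave 13 probe sets of 26379 in all, 9 on array A, 2 on array B and 2 on array C. Atp1b1 and Atp1b2 had 4 probe sets each, Atp1b3 had 3, and Fxyd2 and Fxyd4 had 1 each, both on array A. By the RefSeq annotation of rat assembly GRCr8, Atp1b1 lies on chromosome 13, Atp1b2 on chromosome 10, Atp1b3 and Fxyd2 on chromosome 8 and Fxyd4 on chromosome 4.

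The samples were kidneys of rats aged 5 weeks, of a strain congenic for chromosome 10 on the Dahl salt-sensitive background and of Dahl salt-sensitive rats (Dahl S) themselves, inbred animals that become hypertensive when fed much salt. Both strains share the Dahl S background, and the congenic rats differ by a donor segment. Each design was hybridised with 5 samples of total RNA, numbered 1 to 5, which makes 15 arrays. On arrays B and C, kidneys 4 and 5 were congenic (n = 2) and kidneys 1 to 3 Dahl S (n = 3). On array A, kidneys 1 to 3 were Dahl S, while the strain of kidneys 4 and 5 was unsettled. Their descriptions name Dahl S where the same numbers on the other designs are congenic. Kidneys 4 and 5 of array A are given as single values beside kidneys 1 to 3 and entered no test between the strains. The sources used here do not give the donor strain, the extent of its segment, the diet, the sex or whether tissue was pooled. They also do not say that a number marks the same sample on each design. Nor do they say that each kidney came from a different rat, so the p-values rest on a spread between samples that may be technical.

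The sodium pump, Na,K-ATPase, sits in the basolateral membrane of tubule cells, where it exports sodium and imports potassium and so drives sodium reabsorption along the nephron. Its catalytic alpha subunit needs a glycosylated beta subunit to fold and to reach the membrane. Small single-span FXYD proteins bind the assembled pump and tune its affinity for sodium and potassium. Fxyd2, the gamma subunit, is known from the thick ascending limb and proximal tubule, and Fxyd4, also called CHIF, from the collecting duct.

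Signal is a linear intensity that had been scaled on each array before deposit, and it is comparable between kidneys for 1 probe set, not between probe sets. The median signal per array was between 294.5 and 524.4. Signals below a floor at the 25th percentile of a design (85.1, 140.1 and 153.6 for A, B and C) were raised to it for tests, and probe sets whose mean over the 5 kidneys reached the median of the design (319.5, 485.8 and 510.3) were tested. Of the 13 probe sets of the members, 11 passed that filter. On array A the markers of proximal tubule (6 of 6 with a probe set), thick ascending limb (4 of 4) and principal cells (4 of 5) passed it, among them Umod at 29721 to 38633 and Aqp2 at 5434 to 8110, while of 3 adrenal markers Cyp11b2 and Star lay at 21.3 to 86.2 and Cyp21a1, at 262.1 to 424.1, passed the filter by its mean. The nerve marker Snap25 lay below the filter on arrays A and B, and the myelin marker Mbp passed on B, at 1691 to 2106, but not on A or C. Of the skeletal muscle markers, Myh1 passed on A, at 262.2 to 409.3, and on B, at 4761 to 5810. Myh4 passed on C, at 2083 to 2863, while Ckm, Acta1 and Myh4 did not pass on A. The source of these signals was not tested.

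Atp1b2 is the one member on the chromosome that carries the congenic segment, and its promoter is shown for that reason. Whether the segment includes Atp1b2 is not known here, and the sequence is that of the RefSeq reference strain, not of either strain studied. Promoter windows, 250 bases before to 50 after the annotated start, were in the table for 3 of the 5 genes. The window of Atp1b2 is given 5′ to 3′ on the minus strand, at chr10:54823659-54823958 of GRCr8, with the match to TATAAA in capitals.
Atp1b2: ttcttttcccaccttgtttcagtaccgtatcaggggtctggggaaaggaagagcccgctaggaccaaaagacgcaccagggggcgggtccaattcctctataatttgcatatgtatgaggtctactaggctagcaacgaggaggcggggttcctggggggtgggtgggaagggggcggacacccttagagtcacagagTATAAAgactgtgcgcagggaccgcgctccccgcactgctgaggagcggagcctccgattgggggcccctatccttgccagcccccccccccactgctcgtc
The match starts 52 bases before the annotated start, and TATAAA on either strand occurs in 14.2% of 33469 rat promoter windows of this length. The GC box letters GGGCGG, searched on both strands, occur in 33.1% of them. They were found 2 times in the Atp1b2 window, 6 times in that of Atp1b3 and 1 time in that of Fxyd4, and the windows of Atp1b3 and Fxyd4 hold no TATAAA on either strand. G and C make up 60.3% of the bases for Atp1b2, 77.7% for Atp1b3 and 54.7% for Fxyd4, against a median of 51.7% over all windows.

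Between the strains, 4 probe sets of the members could be tested, 2 of Atp1b3 on array B and 1 each of Atp1b1 and Atp1b2 on array C. None passed limma's test at a Benjamini-Hochberg adjusted p of 0.05, and none had an unadjusted p under 0.05. Over all tested probe sets, 4 of 4385 (0.0912%) passed on array B and 0 of 4420 (0%) on array C, and an unadjusted p under 0.05 was reached by 3.49% on B and 6.2% on C. Atp1b1 was the 1 member whose strain values did not overlap, with congenic lower, which held for 12.2% of the tested probe sets of array C. Fxyd2 and Fxyd4 were measured on array A alone and so were not compared between the strains.

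**Figure D1:**
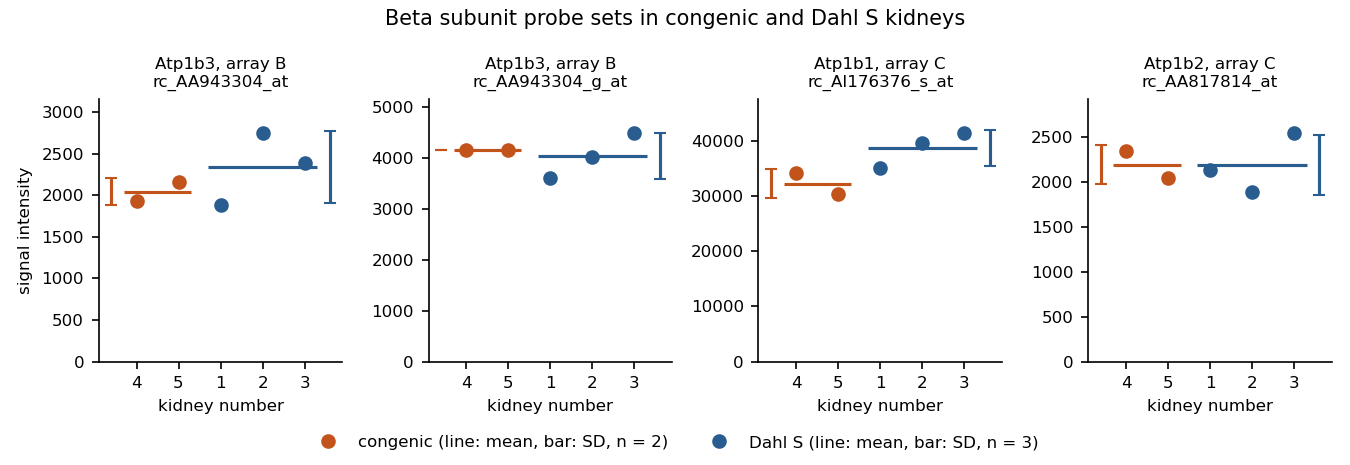
Signal intensity (linear, from 0) of the 4 beta subunit probe sets in each congenic kidney (orange, n = 2) and Dahl S kidney (blue, n = 3); lines are means and bars SD. The strains overlap for both Atp1b3 probe sets and for Atp1b2, while both congenic values of Atp1b1, 34079 and 30308, lie below the lowest Dahl S value of 35105.

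Atp1b1 encodes the main beta subunit of kidney tubules. Its probe set rc_AI176376_s_at on array C read 34079 and 30308 in congenic kidneys 4 and 5, against 35105, 39617 and 41330 in Dahl S kidneys 1 to 3. The congenic values lay below all Dahl S values, but the gap between the nearest kidneys of the strains, 4 and 1, was smaller than the spread within either strain. The means were 32193 ± 2667 in congenic (SD, n = 2) and 38684 ± 3216 in Dahl S kidneys (SD, n = 3), a congenic over Dahl S ratio, taken from the mean log2 values, of 0.833 with a 95% interval of 0.657 to 1.06 (log2 difference, congenic minus Dahl S, -0.26, SE 0.15, limma adjusted p = 0.853). Its non-overlap is shared by the 12.2% of probe sets given above and does not set Atp1b1 apart. The 3′ over 5′ signal ratio of the GAPDH control on array C was also lower in congenic kidneys, at 1.053 and 1.045, than in Dahl S kidneys, at 1.094, 1.09 and 1.108, while that of beta-actin overlapped between the strains, at 1.369 and 1.452 in congenic and 1.486, 1.503 and 1.383 in Dahl S kidneys; their part in the difference was not tested. In these whole kidneys, fewer cells of a type and less RNA per cell cannot be told apart.

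On array A, Atp1b1 had 3 probe sets, which did not order the kidneys alike. The probe set rc_AI112173_at read 39093 and 41725 in kidneys 4 and 5, both below kidneys 1 to 3 at 42163, 49033 and 43392 (44863 ± 3663, SD, n = 3). Both kidneys lay below kidneys 1 to 3 for 10.1% of the 4411 probe sets of array A that passed the filter. The GAPDH ratio of array A was 1.04 and 1.043 in these kidneys, against 1.065 to 1.072 in kidneys 1 to 3, and that of beta-actin 1.322 and 1.347, against 1.422 to 1.552; their part was not tested. The probe set X63375exon_at, named for a genomic exon entry, read 4254 and 3658 in kidneys 4 and 5, against 4128, 5390 and 4561 in kidneys 1 to 3, so that kidney 4 lay within the Dahl S range and kidney 5 below it. The probe set rc_AI230614_s_at read 13857 and 15954, against 13683, 17760 and 9592, and there both kidneys lay within the Dahl S range. A name ending in _s_at marks, in this manufacturer's convention, probes that more than 1 transcript may share. This applies also to rc_AI176376_s_at, the Atp1b1 probe set of array C.

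Among Dahl S kidneys alone, kidney 2 gave the highest Atp1b1 signal on each of the 3 probe sets of array A, and kidney 3 the highest on array C. The highest over the lowest Dahl S value was 1.16 for rc_AI112173_at, 1.31 for X63375exon_at, 1.85 for rc_AI230614_s_at and 1.18 for the array C probe set. The coefficient of variation (SD over mean) of rc_AI230614_s_at over Dahl S kidneys was 29.9%, above the upper quartile of 19.8% over the filtered probe sets of array A, while that of rc_AI112173_at was 8.17% and that of X63375exon_at 13.7%, against a median of 13.1%. On array C it was 8.31%, against a median of 10.8%.

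Atp1b2, known in brain as the adhesion molecule on glia, is the member on chromosome 10. On array C its probe set rc_AA817814_at read 2352 and 2042 in congenic kidneys 4 and 5, against 2137, 1890 and 2547 in Dahl S kidneys 1 to 3. Both congenic values lay inside the Dahl S range. The means were 2197 ± 219 in congenic (SD, n = 2) and 2192 ± 332 in Dahl S kidneys (SD, n = 3), with a log2 difference of 0.01 (SE 0.17, limma adjusted p = 0.994). The 95% interval of the ratio ran from 0.763 to 1.33, so neither equal levels nor a direction of difference was established. These bounds describe the precision of the ratio and are not a limit of detection. The glial and nerve marker measured on array C, Mbp, lay below the filter, at 225 and 392 in congenic kidneys and 215 to 272 in Dahl S kidneys.

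The 3 Atp1b2 probe sets of array A differed in whether they could be used. The probe set J04629_at passed the filter, with 521 and 414 in kidneys 4 and 5 and 528, 511 and 551 in kidneys 1 to 3 (530 ± 20.3, SD, n = 3). Kidney 5 lay below the Dahl S range and kidney 4 within it. Its coefficient of variation over Dahl S kidneys, 3.84%, was under the lower quartile of 8.12% on array A. The other probe sets, D90048exon_at at 110.0 to 179.2 and D90048exon_g_at at 83.3 to 127.7 over the 5 kidneys, did not pass, and 2 of the values of D90048exon_g_at were below the floor. Differences between kidneys were not read from them.

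Atp1b3, a beta subunit found in many tissues, was measured by 3 probe sets. Those on array B, where the strains were compared, did not give 1 direction. On array B, rc_AA943304_at read 1926 and 2159 in congenic kidneys 4 and 5, against 1883, 2747 and 2393 in Dahl S kidneys 1 to 3. Both congenic values lay within the Dahl S range (congenic 2042 ± 165, SD, n = 2; Dahl S 2341 ± 435, SD, n = 3). The ratio from the mean log2 values was 0.881 with a 95% interval of 0.644 to 1.21 (log2 difference -0.18, SE 0.19, limma adjusted p = 0.998).

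The second probe set of the same transcript entry, rc_AA943304_g_at, read 4158 and 4156 in congenic kidneys, against 3597, 4025 and 4484 in Dahl S kidneys. The 2 congenic kidneys were nearly equal and lay in the middle of the Dahl S values (congenic 4157 ± 1.41, SD, n = 2; Dahl S 4035 ± 444, SD, n = 3). Its log2 difference was 0.05 (SE 0.15, limma adjusted p = 0.998), with a ratio of 1.03 and a 95% interval of 0.812 to 1.32. The coefficient of variation over Dahl S kidneys was 18.6% for the first and 11.0% for the second of these probe sets, against an upper quartile of 17.2% and a median of 11.1% on array B. Across the 2 probe sets the difference therefore took either sign, within intervals that overlap widely.

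On array A, Atp1b3 was the 1 member with both kidneys of unsettled strain above the others. The probe set D84450_at read 4450 and 4175 in kidneys 4 and 5, against 4033, 3421 and 3830 in kidneys 1 to 3 (3761 ± 312, SD, n = 3). Both kidneys lay above kidneys 1 to 3 for 8.82% of the filtered probe sets of array A. On array B, kidney 4 lay below the Dahl S mean by the first probe set (log2 deviation -0.26) and above it by the second (0.05), and on array A above it (0.25). Kidney 2, with the lowest Atp1b3 signal of the Dahl S kidneys on array A, had the highest of them by rc_AA943304_at on array B. The labels do not say that a number marks the same sample on both designs.

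**Figure D2:**
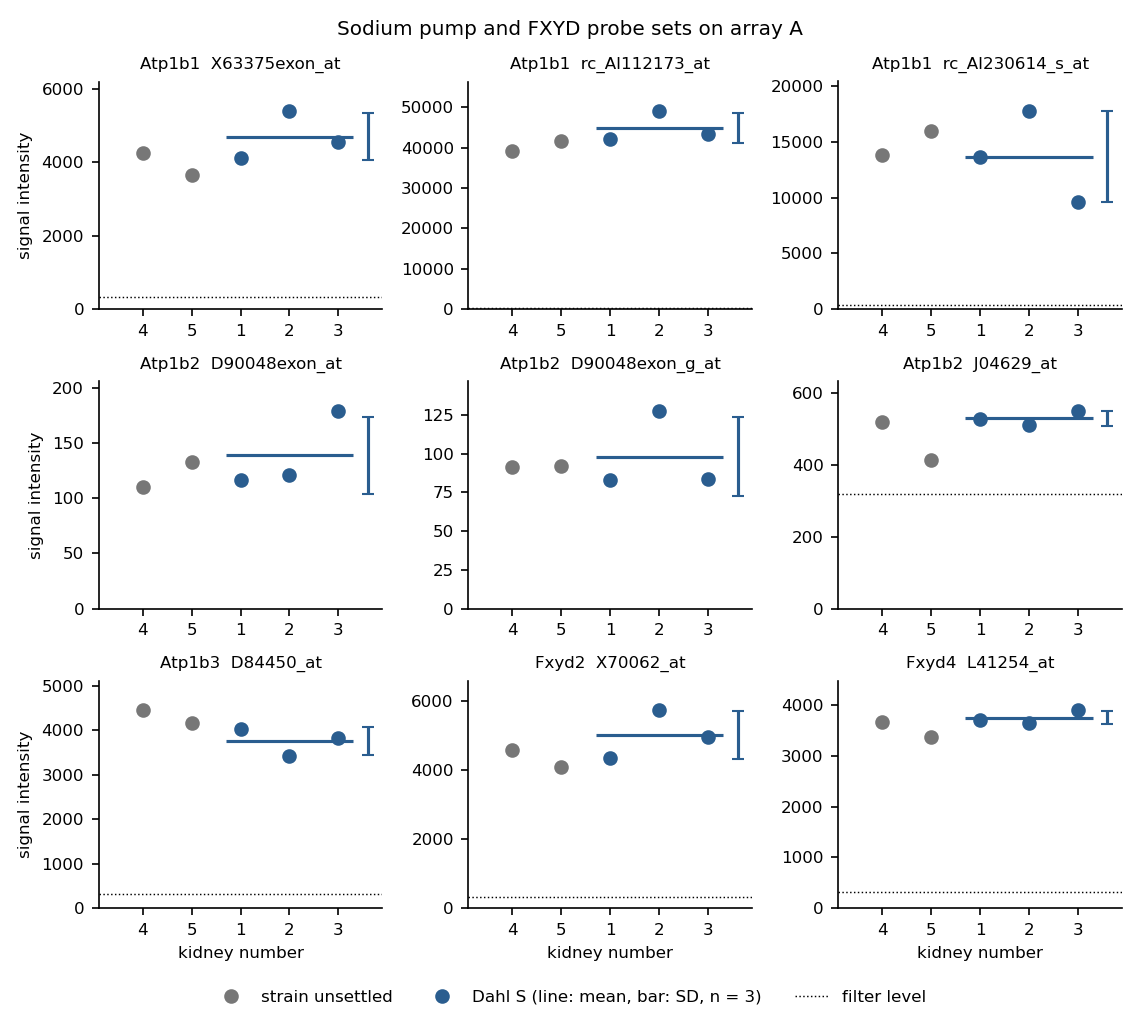
Signal intensity (linear, from 0) of the 9 probe sets of array A by kidney; grey points are kidneys 4 and 5, whose strain is unsettled, blue points are Dahl S kidneys 1 to 3 with their mean (line) and SD (bar, n = 3), and the dotted line is the filter level of 319.5, which lies above the panels of D90048exon_at and D90048exon_g_at. Kidneys 4 and 5 lie below the Dahl S kidneys for rc_AI112173_at and above them for the Atp1b3 probe set.

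Fxyd2 encodes the gamma subunit, which lowers the affinity of the pump for sodium. Its probe set X70062_at read 4583 and 4095 in kidneys 4 and 5, against 4340, 5717 and 4954 in Dahl S kidneys 1 to 3 (5003 ± 690, SD, n = 3). Kidney 5 lay below the Dahl S range and kidney 4 within it, and kidney 2 was the highest. The coefficient of variation over Dahl S kidneys was 13.8%, near the median of array A.

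Fxyd4 encodes CHIF, which raises the affinity of the pump for sodium. Its probe set L41254_at read 3669 and 3379 in kidneys 4 and 5, against 3708, 3649 and 3893 in Dahl S kidneys 1 to 3 (3750 ± 127, SD, n = 3). With a coefficient of variation of 3.40% over Dahl S kidneys it was the steadiest of the 7 filtered probe sets of the members on array A. Kidney 5 again lay below the Dahl S range, while kidney 4 was within it. The summed signal of the principal cell markers on array A was 18364.5 and 15083 in kidneys 4 and 5, against 12855 to 14546 in kidneys 1 to 3. Both kidneys lay above kidneys 1 to 3 for 3 of the 5 genes of this sum (Aqp2, Aqp3 and Avpr2). The same held for 8.82% of all filtered probe sets of array A. It did not hold for Aqp4 or for Scnn1g, which was lowest in kidney 5 as Fxyd4 was. The part of these markers in the Fxyd4 signal was not tested.

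Kidney 5 gave the lowest of the 5 signals on array A for 4 of the 7 filtered probe sets of the members. These were the probe sets of Fxyd2, Fxyd4, Atp1b2 (J04629_at) and Atp1b1 (X63375exon_at). How many of all filtered probe sets were lowest in kidney 5 was not counted, so this count does not set the members apart. The same kidney had the lowest summed signal of proximal tubule markers, 74087, against 97950 in kidney 4 and 92447 to 110296 in kidneys 1 to 3, a sum in which Slc34a1 is the brightest. Of its 6 genes, 4 were lowest in kidney 5, while Cubn was highest there, at 5512 against 3170 to 3970 in kidneys 1 to 3, and Slc5a2, at 1894, lay within their range. Of the 4 thick ascending limb markers, Kcnj1 and Slc12a1 were lowest in kidney 5, and Umod and Egf were not. The part of these marker levels in the member signals was not tested.

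The likeness of patterns over the kidneys was measured as the root mean square difference between log2 signals after each probe set was centred on its own mean over the 5 kidneys of a design. The smaller the value, the more alike the patterns; with 5 kidneys, some of so many probe sets must come close, so the values are a description. For Fxyd2, the closest of 3683 named probe sets of array A was Atp1b1 X63375exon_at, at 0.031, against a median of 0.249 over all of them. Kidney 2 was highest and kidney 5 lowest for both. The other Atp1b1 probe sets were farther from Fxyd2, at 0.104 for rc_AI112173_at and 0.331 for rc_AI230614_s_at, and X63375exon_at itself was 0.121 from rc_AI112173_at. The second closest gene to Fxyd2 was the stress kinase Mapk9, at 0.039.

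For Fxyd4, the closest named gene was Scnn1g, the gamma subunit of the epithelial sodium channel, at 0.017 against a median of 0.203. Scnn1g read 761 and 684 in kidneys 4 and 5 and 746, 754 and 804 in kidneys 1 to 3, so that kidney 5 was lowest and kidney 3 highest for both genes. Papola, a poly(A) polymerase, came next at 0.032. Fxyd4 varied little, with an SD of 0.073 over the 5 centred log2 values, and a flat pattern is close to many others.

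**Figure D3:**
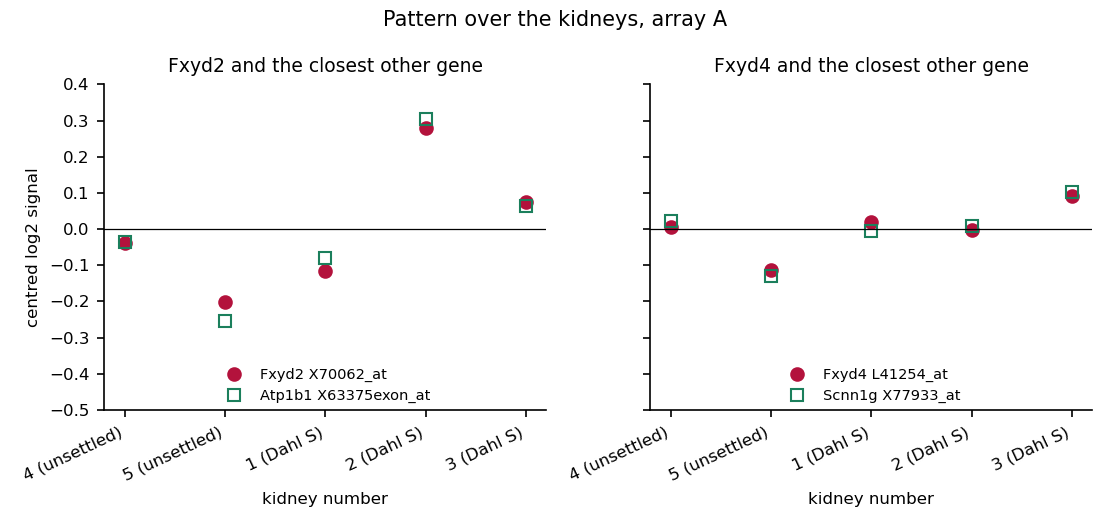
Log2 signal centred on the mean of the 5 kidneys of array A for Fxyd2 with Atp1b1 X63375exon_at (left) and for Fxyd4 with Scnn1g (right); filled circles are the FXYD gene and open squares the closest other gene. The pairs follow each other closely, at root mean square differences of 0.031 and 0.017, and the Fxyd2 pair spans a wider range than the Fxyd4 pair.

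For the brightest Atp1b3 probe set of array A, D84450_at, the closest genes were the vasopressin receptor Avpr2 (0.031) and the mitochondrial co-chaperone Dnaja3 (0.032). Avpr2 read 1307 and 1289 in kidneys 4 and 5 and 1206, 995 and 1161 in kidneys 1 to 3, and kidney 2 was lowest for both genes. For Atp1b3 on array B (rc_AA943304_g_at) they were the motor protein Myo6 (0.019) and the splicing factor Snrnp40 (0.030). For Atp1b1 they were Fam234a (0.016) and the convertase Pcsk7 (0.032) on array A, and the chloride channel protein Clic4 (0.029) and the RNA-binding protein Caprin1 (0.031) on array C. For Atp1b2 they were the neurotrophin Ntf3 (0.022) and the tuberous sclerosis gene Tsc2 (0.032) on array A, and the respiratory chain gene Ndufa1 (0.017) and the histone gene Hist1h4m (0.020) on array C. No gene was among the 2 closest to the same member on more than 1 design. With 2 genes kept of so many, on designs that differ in their probe sets, nothing is read from this.

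Genes that work with the pump were counted from 4 lists, with a gene represented by its brightest probe set. None of their tested members passed limma's adjusted p of 0.05 on either array, and 2 of the 10 tests had an unadjusted limma p under 0.05. Both of these were on array B. Over all tested probe sets, 3.49% on array B and 6.2% on array C reached that. The lists were chosen with earlier results of these data known, so nothing is read from the count. Of 13 other genes of the pump and FXYD families, 1 was tested on array B and 1 on array C. Fxyd7, an FXYD protein known from brain, read 983 and 1011 in congenic kidneys 4 and 5 on array B, against 406, 729 and 582 in Dahl S kidneys 1 to 3. The strains did not overlap, as held with congenic higher for 7.73% of the tested probe sets of array B (997 ± 19.4, SD, n = 2, against 572 ± 162, SD, n = 3; log2 difference 0.84, SE 0.25, unadjusted p = 0.0123, limma adjusted p = 0.998). Fxyd6 on array C read 2299 and 3180 in congenic kidneys, against 2984, 2722 and 3306 in Dahl S kidneys, where kidney 4 was the lowest and kidney 5 lay within the Dahl S values (log2 difference -0.15, limma adjusted p = 0.911).

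Of 16 genes of pump regulation and membrane anchoring, 3 were tested on array B and 2 on array C, with a median log2 difference of 0.20 on B and 0.08 on C, against medians of -0.01 on each array over all tested probe sets. These 5 differences, from 4 genes since Sptbn1 counts on both arrays, were positive and none passed the test; over all tested probe sets, 2131 of 4385 differences on array B and 2117 of 4420 on array C were positive. Sptbn1, a spectrin of the membrane skeleton, averaged 1195 ± 74.8 in congenic (SD, n = 2) and 1043 ± 101 in Dahl S kidneys (SD, n = 3) on array B (limma adjusted p = 0.998) and had a log2 difference of 0.02 on array C. Add3, an adducin, which caps actin and binds spectrin, averaged 3354 ± 260 in congenic and 3012 ± 145 in Dahl S kidneys on array B. The mineralocorticoid receptor Nr3c2 averaged 575 ± 85.9 in congenic and 530 ± 113 in Dahl S kidneys on array C (log2 difference 0.13, limma adjusted p = 0.932).

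Of 12 sodium carriers and channels, 2 were tested on array B and none on array C. The log2 differences on array B were -0.54 for Slc12a2 and -0.01 for Slc4a4, with a median of -0.28. The cotransporter Slc12a2 read 584 and 668 in congenic kidneys, against 975, 799 and 958 in Dahl S kidneys, with no overlap (log2 difference -0.54, SE 0.15, unadjusted p = 0.011, limma adjusted p = 0.998). Non-overlap with congenic lower held for 9.44% of the tested probe sets of array B. The Slc12a2 probe set on array C, below the filter, overlapped, at 317 and 320 in congenic and 78.7 to 433 in Dahl S kidneys. On array A, Slc12a2 read 388 and 595 in kidneys 4 and 5, against 472 to 599 in kidneys 1 to 3, and also overlapped. The sodium bicarbonate cotransporter Slc4a4 read 8425 and 4509 in congenic kidneys, which lay on either side of the Dahl S values of 5455 to 6788 (log2 difference -0.01, limma adjusted p = 0.999). Of 6 basolateral potassium and chloride channel genes, Bsnd, which encodes the chloride channel subunit barttin, was tested on array C, at 1993 ± 142 in congenic (SD, n = 2) and 1821 ± 146 in Dahl S kidneys (SD, n = 3; log2 difference 0.13, limma adjusted p = 0.891).

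**Figure D4:**
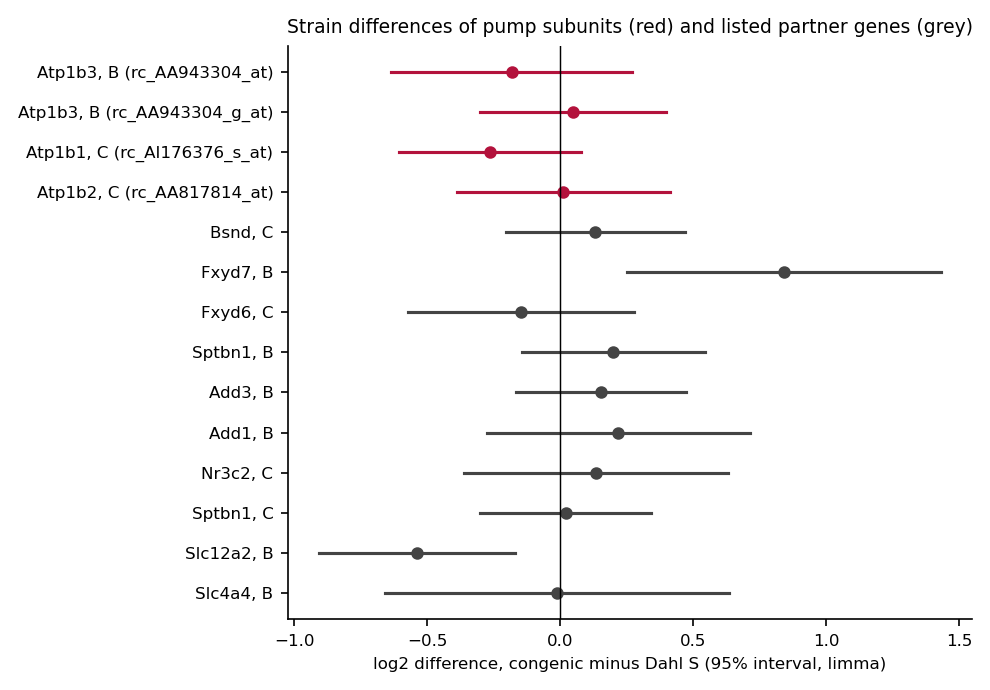
Log2 difference, congenic minus Dahl S (points), with its 95% interval from limma (lines), for the 4 probe sets of the members (red) and the tested genes of the 4 lists (grey) on arrays B and C. The intervals of all 4 member probe sets include 0; those of Fxyd7, higher, and Slc12a2, lower, do not, although neither passed the adjusted threshold.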

How the data were processed

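Total RNA of rat kidneys was measured on single-channel arrays. The values deposited by the authors are linear signal intensities per probe set; the sources used here name no software for them. They had been scaled, as the mean of each array without its top and bottom 2% was 1000.6 to 1001.3, and were used at that scale. A background subtraction is neither stated nor visible. Each design was processed alone. Controls (59 per design) were left out, log2 was taken after the floor, and 4411, 4385 and 4420 probe sets passed the filter on A, B and C. The strains were compared on B and C, congenic minus Dahl S, with limma 3.58.1 (lmFit, eBayes) under R 4.3.3, with Benjamini-Hochberg adjustment over all tested probe sets; the procedure was tested on simulated data. Intervals are limma's moderated 95% intervals, and the number of arrays limits their precision.

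Symbols came from the platform annotation and were updated by gene identifier to RefSeq (GRCr8), which matched 6985 of the 7006 probe sets with 1 symbol for array A, 5333 of 5351 for array B and 5804 of 5821 for array C; 308, 38 and 45 had several symbols and were not named, and 1426, 3343 and 2864 had none. All members were named, with the 2 closest genes per member and design and the 2 smallest p per list. Members and lists were chosen with earlier results of these data known.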

Additional observations from a re-analysis of the deposited data

Results flagged for a closer look

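One result lies in samples that the strain comparisons do not use. For Atp1b3 on array A, the lower signal of kidneys 4 and 5, whose strain is unsettled, was 4174.5, above the highest of Dahl S kidneys 1 to 3, 4033. The same was seen for 8.82% of the filtered probe sets of array A, and the difference was not tested.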

How the results depend on the processing

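No paired analysis was possible because the Dahl S kidneys, numbered 1 to 3, and the congenic kidneys, numbered 4 and 5, share no number. Each strain difference of a member was recomputed under 12 alternatives: quantile normalisation, median scaling, floors at the 10th and 40th percentile, no filter, an intensity trend with robust variance, array quality weights, and each kidney left out in turn. No member probe set passed under any of them. The log2 difference of Atp1b1 on array C stayed negative in all 12, between -0.35 without congenic replicate 4 and -0.18 without congenic replicate 5, with limma adjusted p of 0.8 or more; that of Atp1b3 rc_AA943304_at on array B stayed negative, between -0.33 and -0.06. That of Atp1b2 on array C turned to -0.021 with median scaling, -0.0017 without Dahl S replicate 1, -0.090 without Dahl S replicate 2 and -0.091 without congenic replicate 4; with a kidney left out it ran from -0.091 to 0.125. That of Atp1b3 rc_AA943304_g_at on array B turned to -0.031 without Dahl S replicate 1 and ran up to 0.128 with a kidney left out. The cause was not tested.

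Over all probe sets, the 4 calls of array B became 1 with quantile normalisation, median scaling, either other floor, or array weights, and 0 to 31 with a kidney left out, 31 being without congenic replicate 5. The 0 calls of array C became 2 without the filter, 1 with the intensity trend, and 0 to 35 with a kidney left out, 35 being without congenic replicate 5. In the settings without a congenic replicate, 1 congenic array stands for its strain and is assumed to vary like the others.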
